A study of Caenorhabditis elegans with 6 samples.

Results

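Whole worms carrying the scav-4 allele unk59 and fed Microbacterium sp. JUb74 were compared with whole worms carrying the scav-4 allele unk49 and fed E. coli OP50. The members are the 4 count libraries of these groups, 2 for each, out of 10 libraries with count tables used here, and all genes in them. The other 6 libraries are wild type (N2) on OP50, wild type on JUb74 and unk59 on OP50, with 2 each. All groups carry the label L4, the last larval stage, and all were hatched from bleached eggs without food and then grown on their bacteria until harvest. The series asks how gene expression differs between scav-4 mutant strains on the standard laboratory food and on JUb74, which its title describes as rich in branched chain fatty acids. Allele and food both differ between the groups, so a difference can belong to either or to both, and these cannot be told apart here. The series lists each group as 1 sample with 2 count tables, called libraries here. Nothing in the labels ties them to separate cultures, so each group is n = 2 count tables of 1 sample. The p-values rest on the spread between the tables of a sample, shared over all 5 groups, and that spread may be technical. The labels do not give the nature of either allele.

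scav-4 belongs to the family of the mammalian scavenger receptor CD36, whose members bind or transport lipids. E. coli is a Gram-negative bacterium and Microbacterium a genus of Gram-positive bacteria, which differ in their cell wall. In C. elegans hermaphrodites the germline makes sperm around the last larval stage and then switches to oocytes, while the intestine begins to make yolk proteins and the epidermis sheds its larval cuticle and builds the adult one. Many cuticle genes are switched on and off in each moulting cycle.

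Gene counts in the 4 libraries added up to between 22006143 and 22692632 read pairs. Of 46778 listed genes, 15950 passed the filter on low counts and were tested with edgeR's quasi-likelihood test and Benjamini-Hochberg adjustment over all of them, with a threshold of 0.05. The test passed 2712 genes (17%), of which 1362 (8.54%) were higher in unk59 on JUb74 and 1350 (8.46%) were lower. At an unadjusted p under 0.05 the share was 37%, and in 63.5% of genes tested the groups did not overlap, called or not. The change was at least 1 on the log2 scale in 1128 of the higher genes (7.07% of those tested) and in 885 of the lower ones (5.55%). Over all genes tested the median log2 fold change was -0.04 (-0.035 unrounded) and moved to 0.15 under upper-quartile scaling, which gave 1864 higher and 817 lower calls, so 69.5% of calls were higher in place of 50.2%. The number of calls also depended on single libraries. It was 625 without unk59 library 1, 1250 without unk59 library 2, 1150 without unk49 library 1 and 4347 without unk49 library 2. The sign was kept for all 2712 genes in each of these fits. These genes were selected for a difference between the same libraries, so leaving out 1 library could hardly turn a sign. Here and below, unk59 library 1 and 2 are the ones on JUb74, levels are CPM (read counts relative to library size, TMM-scaled) in the order of library 1 and 2, and a fold change is log2 of unk59 on JUb74 over unk49 on OP50.

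**Figure D1:**
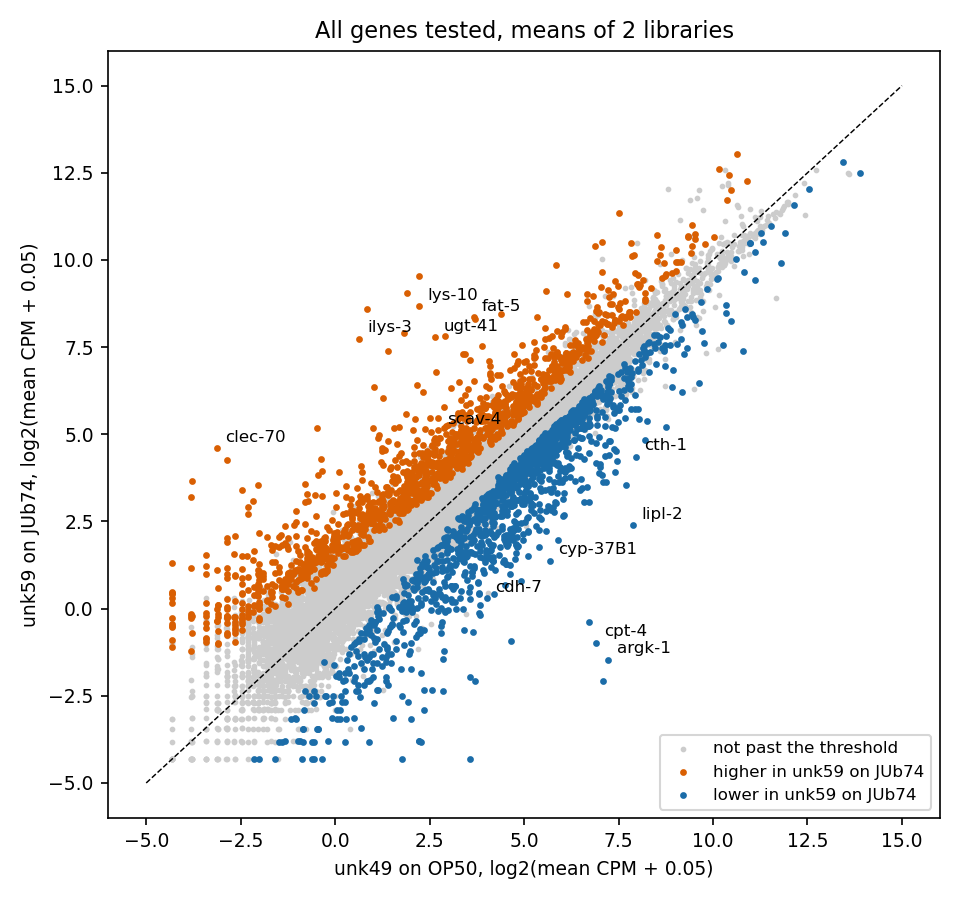
Mean level of each gene tested in unk49 on OP50 (x axis) and unk59 on JUb74 (y axis), both as log2(mean CPM + 0.05), with the line of equal level dashed. Orange points are the 1362 genes that were higher and blue points the 1350 that were lower, with clec-70 and lys-10 among those far above the line and argk-1 and cpt-4 among those far below it.

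The targeted gene itself differed between the groups. scav-4 (WBcel235 chromosome X, 12981775 to 12985868, plus strand) stood at 38.1 and 31.2 CPM in unk59 on JUb74 and at 6.04 and 7.16 CPM in unk49 on OP50. Both unk59 libraries were above both unk49 libraries (log2 fold change 2.39, SE 0.46, adjusted p 0.00954). In wild type it was 47.2 and 36.1 CPM on OP50 and 33.1 and 9.93 CPM on JUb74, and in unk59 on OP50 it was 39.3 and 38.3 CPM. The unk49 libraries were thus the lowest of all 10, while the unk59 level lay within the range of wild type. Its fold change stayed between 2.24 and 2.58 in all alternatives, with an adjusted p of 0.0709 without unk59 library 1 and 0.0740 without unk49 library 1. Of the 6 CD36-related genes tested, scav-4 was the only one called in the main edgeR fit. With DESeq2, 1 gene of the family was called lower. The same number was lower in edgeR with relative log expression scaling, without a filter, with at least 10 reads in every library or with the first strand column. The last 79 bases of scav-4 overlap mff-1 on the other strand, and the counts used here do not separate strands.

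Sperm and oocyte transcripts were high in both groups and low in the other 6 libraries. The 31 major sperm protein genes, which encode the cytoskeletal protein of crawling sperm, summed to 2580 and 2260 CPM in unk59 on JUb74 and 2690 and 1750 CPM in unk49 on OP50, against 1.06 to 141 CPM elsewhere. Fewer cells of a type and less RNA per cell cannot be told apart in whole worms. None of the 29 tested was called in edgeR's test, with DESeq2 or at an unadjusted p under 0.05, and their median log2 fold change was 0.11, from -0.20 to 0.54 with a library left out. These genes are near-identical copies, and reads that map to several places were not counted. Of 54 other spermatogenesis genes tested, 4 were higher, none was lower and the median was 0.76. The higher share was 7.41%, below the 8.54% of all genes, and 16 were higher in a fit of only the 4 libraries. They included the sperm membrane protein gene spe-38 at 2.697 and 2.09 CPM against 0.514 and 0.486 CPM (log2 fold change 2.25, SE 0.62, adjusted p 0.0428) and spe-10 at 7.62 and 5.50 CPM against 1.76 and 2.17 CPM (log2 fold change 1.74, SE 0.49, adjusted p 0.0395). The other 2 called were ssp-37 and spe-36, and at most 1 of the 54 was called when any of the 4 libraries was left out. spe-38, spe-10, ssp-37 and spe-36 missed the threshold without any 1 of the 4 libraries (adjusted p 0.0676 to 0.300). spe-36 missed it in a fit of only the 4 libraries, without a filter, with the first strand column, with the second strand column or with DESeq2 (0.0530 to 0.430), spe-38 with DESeq2 (0.0572), spe-10 with the second strand column (0.0819) and ssp-37 with the first strand column (0.0616).

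Oocyte transcripts differed between the unk49 libraries themselves. The 13 oocyte markers summed to 1770 and 2910 CPM in unk59 on JUb74 and 6690 and 2340 CPM in unk49 on OP50, so unk59 library 2 stood above unk49 library 2 and below unk49 library 1. In the other 6 libraries the sum was 13.8 to 109 CPM. For rme-2, the yolk receptor of oocytes, the levels were 38.5 and 109 CPM against 364 and 96.5 CPM (log2 fold change -1.65, SE 0.62, adjusted p 0.0922). For the oocyte maturation factor oma-1 they were 29.9 and 66.2 CPM against 178 and 56.8 CPM (log2 fold change -1.29, SE 0.51, adjusted p 0.103). Neither passed the test, and in both the groups overlapped. Without unk49 library 2 both were called, rme-2 at -2.32 (adjusted p 0.0199) and oma-1 at -1.91 (adjusted p 0.0191), and both were with DESeq2 too. None of the 13 markers was called in edgeR's test, 9 were lower at an unadjusted p under 0.05 and 6 were called with DESeq2.

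Of 25 oocyte maturation and eggshell genes tested, 3 were lower and none higher, with a median of -1.24. The lower share, 12%, is close to the 8.46% of all genes. The called genes were egg-5 (fold change -1.41), a gene needed for the egg-to-embryo transition, ima-2 (-1.24), an importin alpha of the germline, and the chondroitin proteoglycan gene cpg-7 (-0.97). Without unk49 library 1 the list had 0 called genes and a median of -0.35, and without unk49 library 2 it had 17 and -1.79. Among 22 germline P granule and RNA-binding genes, nos-3 alone was called in edgeR's test (4.55%, below the 8.46% of all genes), and 10 were lower with DESeq2. nos-3 stood at 59.3 and 73.4 CPM against 179.5 and 99.4 CPM (log2 fold change -1.07, SE 0.30, adjusted p 0.0382). That list had 15 called genes without unk49 library 2 and 0 without unk49 library 1. None of 18 meiotic chromosome genes was called in edgeR's test (median -0.82), 7 were lower at an unadjusted p under 0.05, 2 were called with DESeq2 and 3 without unk49 library 2. egg-5, ima-2 and nos-3 missed the threshold without unk59 library 1, unk59 library 2 or unk49 library 1 (adjusted p 0.0616 to 0.324), and cpg-7 without unk59 library 1 or unk49 library 1 (adjusted p 0.0943 to 0.188). egg-5 missed it in a fit of only the 4 libraries, with upper-quartile scaling, with the first strand column or with at least 10 reads in each of the 4 libraries (0.0505 to 0.0927), ima-2 in a fit of only the 4 libraries, with upper-quartile scaling or with at least 10 reads in each of the 4 libraries (0.0535 to 0.0821), nos-3 in a fit of only the 4 libraries or with upper-quartile scaling (0.0605 to 0.0743) and cpg-7 in a fit of only the 4 libraries (0.0642).

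Cell cycle and DNA replication genes were lower in unk59 on JUb74 in 10 of 26 cases, with none higher and a median of -1.14. The number lower was 18 with DESeq2, 3 with upper-quartile scaling and 4 in a fit of only the 4 libraries. The S-phase cyclin gene cye-1 stood at 26.4 and 45.8 CPM against 125 and 55.4 CPM, the G1 cyclin gene cyd-1 at 2.53 and 3.57 CPM against 16.0 and 7.78 CPM and the ribonucleotide reductase gene rnr-1 at 46.9 and 79.4 CPM against 275 and 135 CPM. Their fold changes were -1.32, -1.96 and -1.70. In all 3 genes both unk59 libraries were below both unk49 libraries, and unk49 library 1 was the highest of the 4. The list also included the licensing factor gene cdt-1 and the helicase genes mcm-4, mcm-5 and mcm-6. No member was called without unk49 library 1 or without unk59 library 1, and 18 were without unk49 library 2. Cell cycle genes thus moved with the oocyte markers across the unk49 libraries, and the part of germ cell content in them was not tested. cye-1, cdt-1, mcm-4, mcm-5 and mcm-6 missed the threshold without unk59 library 1, unk59 library 2 or unk49 library 1 (adjusted p 0.0549 to 0.281), and cyd-1 and rnr-1 without unk59 library 1 or unk49 library 1 (adjusted p 0.0616 to 0.143). mcm-4 missed it in a fit of only the 4 libraries, without a filter, with upper-quartile scaling or with at least 10 reads in each of the 4 libraries (0.0563 to 0.0782), cye-1 and mcm-6 in a fit of only the 4 libraries, with upper-quartile scaling or with at least 10 reads in each of the 4 libraries (0.0548 to 0.0855) and mcm-5 without a filter, with upper-quartile scaling or with at least 10 reads in each of the 4 libraries (0.0559 to 0.0599).

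Yolk protein and uterine genes were also high in both groups. The 6 vitellogenin genes summed to 15000 and 9720 CPM in unk59 on JUb74 and 20600 and 40400 CPM in unk49 on OP50. Both unk49 libraries were above both unk59 libraries, but none of the 6 genes was called in edgeR's test, with DESeq2 or at an unadjusted p under 0.05 (median -2.57). vit-6, for example, had 6990 and 4563 CPM against 8600 and 15810 CPM (log2 fold change -1.08, SE 1.32, adjusted p 0.574), and was called in a fit of only the 4 libraries (adjusted p 0.0327). The vitellogenin sum spread widely within other groups, from 73.2 and 5410 CPM in unk59 on OP50, and the fit shares 1 estimate of spread over all 5 groups. The 5 uterine lumen expressed genes summed to 3870 and 2570 CPM in unk59 on JUb74 and 823 and 1750 CPM in unk49 on OP50, against 0.382 to 37.7 CPM elsewhere. None was called in edgeR's test or with DESeq2, and the single gene at an unadjusted p under 0.05 was ule-1 with 299 and 213 CPM against 36.5 and 107 CPM (log2 fold change 1.83, SE 0.56, adjusted p 0.0506). ule-1 was called under either other scaling, with either strand column, in a fit of only the 4 libraries and without unk49 library 2 (adjusted p 0.016 to 0.0498).

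**Figure D2:**
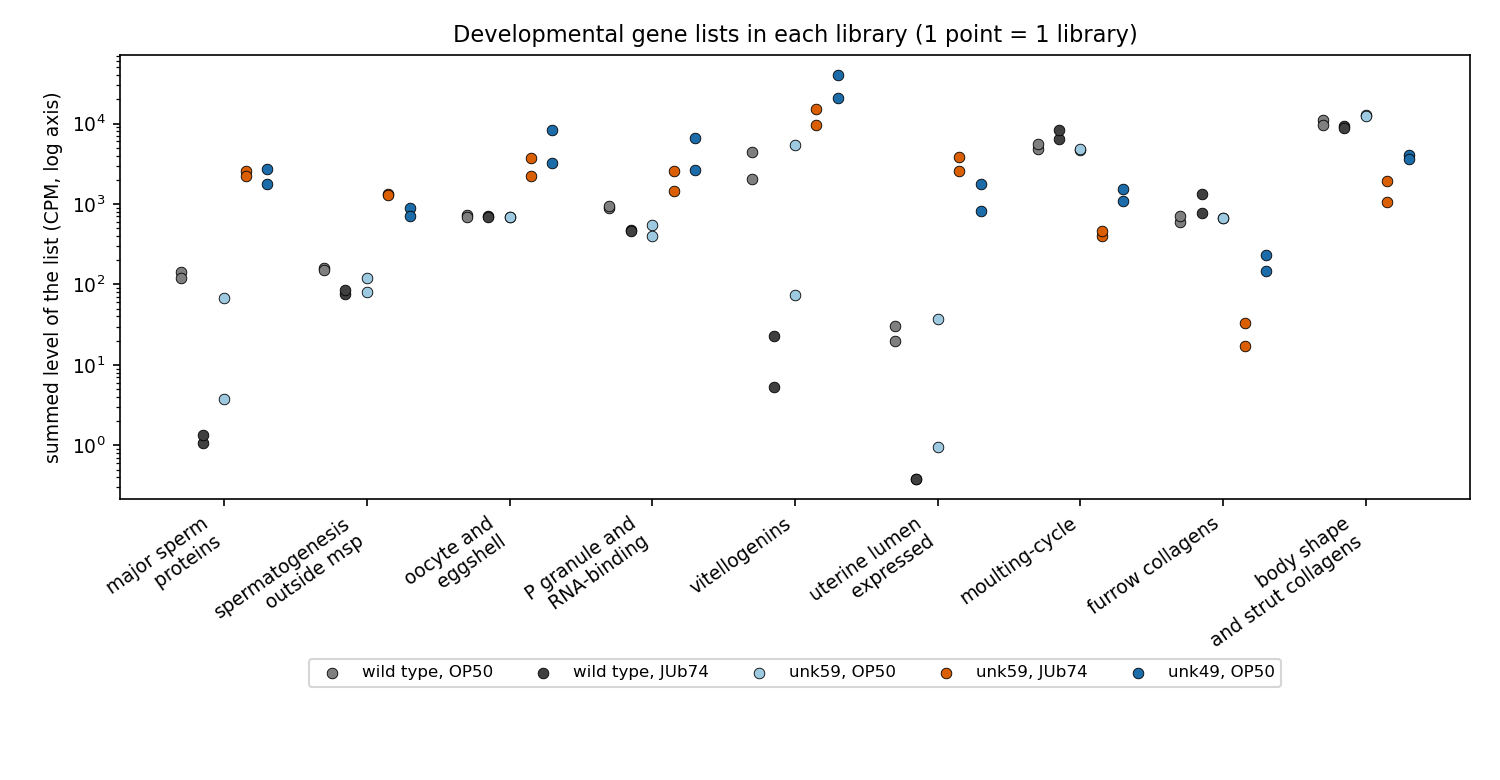
Summed level of developmental gene lists in each of the 10 libraries (y axis, CPM on a log axis), 1 point for each library and 1 colour for each group. Sperm, oocyte and uterine lists are high in unk59 on JUb74 and unk49 on OP50 alone, and the furrow collagens are lowest in unk59 on JUb74, at 17.1 and 32.9 CPM.

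The clearest difference between the groups lay in the genes of the moulting cuticle, which were lower in unk59 on JUb74. All 6 furrow collagens, which form the circumferential furrows of the cuticle, were called lower, with a median of -2.92 against -0.04 over all genes. dpy-7 (WBcel235 chromosome X, 7536467 to 7537792) stood at 2.40 and 5.38 CPM against 34.3 and 28.02 CPM (log2 fold change -2.998, SE 0.37, adjusted p 0.00166). dpy-3 stood at 1.24 and 3.41 CPM against 32.9 and 16.1 CPM (log2 fold change -3.39, SE 0.50, adjusted p 0.00287). In both genes the unk59 libraries were below the unk49 libraries, and all 4 were below the other 6 libraries, where dpy-7 was between 98.6 and 223 CPM. The remaining 4 genes, dpy-2, dpy-8, dpy-9 and dpy-10, had fold changes from -2.93 to -2.55. All 6 stayed called whichever of the 4 libraries was left out, with list medians from -3.59 to -2.52.

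The moulting-cycle list showed the same direction in 14 of 22 genes tested, with a median of -1.87. The protease inhibitor gene mlt-11, needed for shedding the old cuticle, stood at 9.59 and 20.5 CPM against 201 and 141 CPM (log2 fold change -3.50, SE 0.37, adjusted p 0.00111). The lipocalin gene lpr-3 of the apical matrix stood at 7.66 and 16.8 CPM against 172 and 101 CPM (log2 fold change -3.48, SE 0.41, adjusted p 0.00131). The zona pellucida protein gene noah-1 stood at 10.49 and 17.9 CPM against 154 and 111 CPM (log2 fold change -3.22, SE 0.31, adjusted p 0.000858). In each of them the unk59 libraries were a fraction of the unk49 libraries and the groups did not overlap. wrt-10, noah-2, mlt-9, the fibrillin gene fbn-1, mlt-10, ptr-4, qua-1, mlt-8, let-653 and the transcription factor genes myrf-1 and blmp-1 were also lower, with fold changes from -3.35 to -1.001. The exception was dpy-31, an astacin protease that processes collagens, which was higher at 69.4 and 52.3 CPM against 22.8 and 21.4 CPM (log2 fold change 1.46, SE 0.19, adjusted p 0.00174). Between 13 and 15 of the genes were called lower when a library was left out. let-653 missed the threshold without unk59 library 1 or unk49 library 1 (adjusted p 0.0524 to 0.0815).

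Of 15 collagens of body shape and of the adult struts tested, 11 were lower and none was higher (median -1.76). sqt-2 stood at 16.7 and 34.9 CPM against 162 and 118 CPM (log2 fold change -2.44, SE 0.32, adjusted p 0.00189) and lon-3 at 3.25 and 8.58 CPM against 44.6 and 42.1 CPM (log2 fold change -2.87, SE 0.41, adjusted p 0.00263). bli-1, which encodes a collagen of the struts, stood at 7.41 and 17.1 CPM against 165 and 124 CPM (log2 fold change -3.56, SE 0.92, adjusted p 0.0339), and bli-2 at 8.48 and 24.7 CPM against 139.9 and 116 CPM (log2 fold change -2.95, SE 0.86, adjusted p 0.0487). For bli-1 and bli-2 the groups did not overlap, but wild type ranged from 0.297 CPM on JUb74 to 472 CPM on OP50 for bli-1, so the level in the 4 libraries lay inside the wild-type range. bli-2 missed the threshold without any 1 of the 4 libraries (adjusted p 0.0744 to 0.269), and bli-1 without unk59 library 1, unk59 library 2 or unk49 library 1 (adjusted p 0.0882 to 0.230). bli-2 missed it without a filter, with upper-quartile scaling, with the first strand column, with the second strand column or with at least 10 reads in each of the 4 libraries (0.0508 to 0.160) and bli-1 without a filter (0.123). The list had 4 called genes without unk49 library 1 and 6 without unk59 library 1. bli-1, bli-2 and lon-3 lie wholly within dph-2, zyg-1 and ogdh-2 on the opposite strand (3197, 1041 and 1209 shared bases), and reads in an overlap could not be assigned by strand.

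The numbered cuticle collagens split in both directions, with 12 higher (10.1% of those tested, 8.54% over all genes) and 21 lower (17.6%, 8.46% over all genes). Their summed level was higher in unk59 on JUb74, at 86800 and 82900 CPM against 29200 and 31400 CPM, although the median fold change was -0.66. col-143 stood at 2945 and 2302 CPM against 154 and 214 CPM (log2 fold change 3.83, SE 0.59, adjusted p 0.00347). col-101 stood at 1647 and 1079 CPM against 82.2 and 152 CPM (log2 fold change 3.54, SE 0.38, adjusted p 0.00111), and col-95 at 398 and 266 CPM against 26.6 and 54.9 CPM (log2 fold change 3.03, SE 0.41, adjusted p 0.00206). These 3 collagens were at most 3.82 CPM in the other 6 libraries, so both groups stood above them and unk59 on JUb74 stood highest. col-142 followed with a fold change of 2.64. Among the lower ones were col-43 (-2.94), col-110 (-2.88), col-41 (-2.70) and col-128 (-2.66). col-110 missed the threshold without any 1 of the 4 libraries (adjusted p 0.0741 to 0.265), col-43 without unk59 library 1, unk59 library 2 or unk49 library 1 (adjusted p 0.0585 to 0.0727), col-41 without unk59 library 1 or unk49 library 1 (adjusted p 0.0959 to 0.159), col-143 without unk49 library 1 (adjusted p 0.0511) and col-128 without unk59 library 1 (adjusted p 0.0556). col-110 missed it without a filter, with upper-quartile scaling, with the second strand column or with at least 10 reads in each of the 4 libraries (0.0505 to 0.158) and col-41 without a filter (0.0861).

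col-19, a collagen used as a marker of the adult cuticle, stood at 3727 and 3360 CPM against 753 and 770.5 CPM (log2 fold change 2.22, SE 1.19, adjusted p 0.208). The unk59 libraries were above the unk49 libraries, but the gene did not pass the test, in contrast to a fit of only the 4 libraries (adjusted p 0.00017). Without unk59 library 1 the numbered collagens had 10 genes called higher and 0 lower, and without unk49 library 1 they had 9 and 5. col-101 and col-41 lie wholly within drl-1 and ucr-2.2 on the opposite strand.

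Hedgehog-related and patched-related genes, many of which are made by the epidermis, were lower in 25 of 64 cases and higher in 9 (median -0.66). The hedgehog-related genes called higher numbered 3, 6, 6 and 8 and those called lower 15, 20, 13 and 25 without unk59 library 1, unk59 library 2, unk49 library 1 and unk49 library 2 in turn. The warthog gene wrt-6 stood at 5.87 and 10.6 CPM against 110.4 and 101 CPM (log2 fold change -3.68, SE 0.62, adjusted p 0.00527) and wrt-2 at 1.46 and 3.86 CPM against 32.4 and 21.4 CPM (log2 fold change -3.33, SE 0.40, adjusted p 0.00150). Of the timing genes, lin-42, the homolog of PERIOD that cycles with the moults, stood at 14.6 and 30.96 CPM against 202 and 142 CPM (log2 fold change -2.91, SE 0.34, adjusted p 0.00129). mab-10, a cofactor in the switch from larva to adult, fell from 40.6 and 35.2 to 20.7 and 21.9 CPM (log2 fold change -0.83, SE 0.22, adjusted p 0.0350). The other 10 heterochronic genes tested were not called in edgeR's test, while DESeq2 called 3 of the list lower and upper-quartile scaling 1 higher. mab-10 missed the threshold without unk59 library 1, unk59 library 2 or unk49 library 1 (adjusted p 0.113 to 0.204), and wrt-6 without unk59 library 1 (adjusted p 0.0743). mab-10 missed it in a fit of only the 4 libraries or with upper-quartile scaling (0.0632 to 0.0861). The 8 epidermal markers summed to 334 and 497 CPM in unk59 on JUb74 and 1140 and 1010 CPM in unk49 on OP50. In the other 6 libraries the sum was 3300 to 4960 CPM. Of these markers, 6 were called lower and 1 higher. The cuticle collagen genes dpy-7, bli-1, rol-6, dpy-5 and col-10 are among them, so the sum is no separate reference for cuticle genes. The part of epidermal RNA in these genes was not tested.

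Fatty acid desaturases and elongases were higher in unk59 on JUb74 in 6 of 16 genes, with none lower and a median of 0.79. fat-5 (WBcel235 chromosome V, 17725004 to 17726818), a delta-9 desaturase that acts on palmitate, stood at 316 and 336 CPM against 12.81 and 12.51 CPM (log2 fold change 4.69, SE 0.32, adjusted p 0.000395). fat-7, a delta-9 desaturase of stearate, stood at 1603 and 1324 CPM against 74.0 and 193 CPM (log2 fold change 3.45, SE 0.49, adjusted p 0.00249). Its partner fat-6 stood at 1564 and 1555 CPM against 741 and 725 CPM (log2 fold change 1.09, SE 0.16, adjusted p 0.00283). In all 3 genes both unk59 libraries were above every unk49 library, and they were also the highest of all 10 libraries.

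The elongase elo-2, which lengthens palmitate, rose from 284 and 494 to 1240 and 1025 CPM (log2 fold change 1.54, SE 0.25, adjusted p 0.00454), and the delta-6 desaturase fat-3 from 162 and 202 to 327 and 287 CPM (log2 fold change 0.76, SE 0.19, adjusted p 0.0267). elo-9 was the sixth gene called (fold change 1.04). The elongases of monomethyl branched-chain fatty acids did not pass the test. elo-5 stood at 1170 and 881 CPM against 302 and 855 CPM (log2 fold change 0.83, SE 0.39, adjusted p 0.154) and elo-6 at 1319 and 1010 CPM against 414 and 970.5 CPM (log2 fold change 0.75, SE 0.35, adjusted p 0.153), and in both unk49 library 2 lay close to the unk59 libraries. Without that library they were called, at 1.74 (adjusted p 0.00597) and 1.47 (adjusted p 0.0113). Between 4 and 8 genes of the list were called higher when a library was left out. fat-6 and fat-7 are close copies, so counts may be split between them. fat-3 and elo-9 missed the threshold without unk59 library 1, unk59 library 2 or unk49 library 1 (adjusted p 0.0665 to 0.231). fat-3 and elo-9 missed it in a fit of only the 4 libraries (0.0627 to 0.0777).

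Of 16 genes of fatty acid synthesis and its regulators, 3 were higher and 1 lower (median 0.23). The ATP citrate lyase gene acly-1 rose from 160.1 and 161 to 494 and 358 CPM (log2 fold change 1.41, SE 0.23, adjusted p 0.00449), and pod-2, the acetyl-CoA carboxylase gene, was higher at 844 and 639 CPM against 409.6 and 440.5 CPM (log2 fold change 0.80, SE 0.21, adjusted p 0.0312). hpo-8 was the remaining higher gene (0.73). The lower one was acs-1, an acyl-CoA synthetase tied to branched-chain fatty acids, at 55.1 and 50.1 CPM against 196 and 289.8 CPM (log2 fold change -2.21, SE 0.22, adjusted p 0.000888). acs-1 was called in all alternatives. hpo-8 missed the threshold without unk59 library 1, unk59 library 2 or unk49 library 1 (adjusted p 0.0846 to 0.151), and pod-2 without unk59 library 1 or unk49 library 1 (adjusted p 0.0933 to 0.232). hpo-8 missed it in a fit of only the 4 libraries (0.0654). None of 10 genes of branched-chain amino acid breakdown was called in edgeR's test (median 0.14), while 2 were higher at an unadjusted p under 0.05 and 2 were called with DESeq2.

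Most carnitine palmitoyltransferases and lysosomal lipases were lower. Of 6 carnitine palmitoyltransferases, which carry fatty acids into mitochondria, 4 were lower and none higher (median -1.95). cpt-4 (WBcel235 chromosome V, 5023706 to 5027723) stood at 0.343 and 0.575 CPM against 149 and 91.0 CPM (log2 fold change -8.01, SE 0.48, adjusted p 0.000236). cpt-1 stood at 38.8 and 42 CPM against 226 and 130.5 CPM (log2 fold change -2.14, SE 0.24, adjusted p 0.00129). cpt-4 was nearly absent from both unk59 libraries. It was called in each of the 11 alternatives that tested it, which leaves out both filters of 10 reads, and cpt-1 was called in all 13. The other called members were cpt-3 (-3.17) and cpt-6 (-1.76). cpt-6 missed the threshold without unk59 library 1 or unk49 library 1 (adjusted p 0.0543 to 0.0719), and cpt-3 without unk59 library 1 (adjusted p 0.0668).

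Of 7 lysosomal lipases tested, 4 were lower and none higher (median -1.75). lipl-2 stood at 5.09 and 5.38 CPM against 165 and 308 CPM (log2 fold change -5.50, SE 1.03, adjusted p 0.00992), and lipl-5 at 283 and 219 CPM against 718 and 966 CPM (log2 fold change -1.75, SE 0.38, adjusted p 0.0165). In both, the unk49 libraries were the highest of all 10. lipl-1 (-3.16) and lipl-6 (-2.02) were the other members called. lipl-1 missed the threshold without unk59 library 1, unk59 library 2 or unk49 library 1 (adjusted p 0.0983 to 0.108), and lipl-2 and lipl-5 without unk59 library 1 or unk59 library 2 (adjusted p 0.0645 to 0.107). lipl-2 and lipl-1 missed it without a filter (0.0550 to 0.0823).

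Peroxisomal beta-oxidation genes were lower in 3 of 14 cases, all of them acyl-CoA oxidases, with a median of 0.04. acox-1.3 stood at 3.08 and 1.601 CPM against 7.84 and 9.99 CPM (log2 fold change -1.93, SE 0.33, adjusted p 0.00579), and acox-1.4 and acox-1.6 had fold changes of -1.19 and -0.90. Acyl-CoA synthetases and dehydrogenases were lower in 6 and higher in 2 of 35 cases, with 4 higher and 10 lower with DESeq2. In edgeR's test the lower share was 17.1% against 8.46% of all genes, and the higher share 5.71% against 8.54%. None was higher without either unk59 library or unk49 library 1, and 3 were lower without unk59 library 1. acs-22, related to mammalian fatty acid transport proteins, stood at 37.4 and 38.8 CPM against 114.5 and 130.1 CPM (log2 fold change -1.68, SE 0.24, adjusted p 0.00254). Of 16 lipid droplet and triglyceride genes, the perilipin gene plin-1 rose from 270.4 and 136 to 445 and 453 CPM (log2 fold change 1.14, SE 0.29, adjusted p 0.0287) and the lipin gene lpin-1 from 170.2 and 187 to 450.4 and 349.7 CPM (log2 fold change 1.17, SE 0.20, adjusted p 0.00570). acs-22, which that list also holds, was its lower member. Of 9 fatty acid binding proteins, lbp-6 alone was called in edgeR's test (0.82), a higher share of 11.1% against 8.54% of all genes. DESeq2 called 3 higher and 2 lower, and 5 were higher without unk49 library 2. acox-1.4 missed the threshold without any 1 of the 4 libraries (adjusted p 0.0758 to 0.173), plin-1 without unk59 library 1, unk59 library 2 or unk49 library 2 (adjusted p 0.0508 to 0.142), lbp-6 without unk59 library 1, unk59 library 2 or unk49 library 1 (adjusted p 0.0762 to 0.207), acox-1.6 without unk59 library 1 or unk59 library 2 (adjusted p 0.0832 to 0.128) and lpin-1 without unk59 library 1 (adjusted p 0.0616). acox-1.4 missed it with upper-quartile scaling or with at least 10 reads in each of the 4 libraries (0.0514 to 0.0643) and acox-1.6, plin-1 and lbp-6 in a fit of only the 4 libraries (0.0541 to 0.0697).

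The methionine cycle and the vitamin B12 pathway were higher in unk59 on JUb74 than in unk49 on OP50 in 10 of 16 genes, with none lower and a median of 1.07. The list summed to 12000 and 10400 CPM in unk59 on JUb74 and 5150 and 4410 CPM in unk49 on OP50. In the other 6 libraries the sum was 12300 to 16200 CPM, so unk49 on OP50 was the group that stood apart. Both unk49 libraries were below all other 8 in 7 of the genes, and both unk59 libraries were above all other 8 in 3. Vitamin B12 is the cofactor of methionine synthase and of the enzyme that breaks down methylmalonyl-CoA from propionate. mmaa-1, which handles the cofactor for the latter enzyme, stood at 267 and 251 CPM against 64.6 and 69.8 CPM (log2 fold change 1.95, SE 0.33, adjusted p 0.00565). metr-1, methionine synthase, stood at 885 and 709 CPM against 309.6 and 184 CPM (log2 fold change 1.69, SE 0.36, adjusted p 0.0144). mthf-1, which makes its folate substrate, stood at 794 and 726 CPM against 312 and 205 CPM (log2 fold change 1.55, SE 0.30, adjusted p 0.00933). In all 3 both unk59 libraries were above both unk49 libraries. metr-1 missed the threshold without unk59 library 1 or unk49 library 2 (adjusted p 0.0522 to 0.109), and mthf-1 without unk59 library 1 (adjusted p 0.0722).

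Further along the cycle, the S-adenosylmethionine synthetase gene sams-1 stood at 1771 and 1650 CPM against 839 and 637 CPM (log2 fold change 1.21, SE 0.26, adjusted p 0.0161). The adenosylhomocysteinase gene ahcy-1 stood at 5365 and 4459 CPM against 1983 and 1824 CPM (log2 fold change 1.37, SE 0.23, adjusted p 0.00569). For sams-1 and ahcy-1 the wild-type libraries on either food were above unk49 on OP50, at 2390 CPM or more for sams-1, so the unk49 libraries were the low ones. mel-32, mtrr-1, mce-1, pccb-1 and nhr-114, a nuclear receptor that controls methionine cycle genes, were higher by 0.56 to 1.37. The list had 2 genes called higher without unk59 library 1 and between 7 and 8 without any other library. sams-1 missed the threshold without unk59 library 1, unk59 library 2 or unk49 library 2 (adjusted p 0.0511 to 0.108), mce-1 and pccb-1 without unk59 library 1, unk59 library 2 or unk49 library 1 (adjusted p 0.0555 to 0.229), mtrr-1 without unk59 library 1 or unk49 library 1 (adjusted p 0.0585 to 0.0920) and ahcy-1 and nhr-114 without unk59 library 1 (adjusted p 0.0576 to 0.0579). pccb-1 missed it in a fit of only the 4 libraries or without a filter (0.0790 to 0.116) and mce-1 in a fit of only the 4 libraries (0.100). None of 7 propionate shunt genes was called in edgeR's test, acdh-1 standing at 2258 and 2163 CPM against 885 and 1671 CPM (log2 fold change 0.79, SE 0.28, adjusted p 0.0763). At an unadjusted p under 0.05 2 were higher, and 2 were called with DESeq2, acdh-1 among them (adjusted p 0.0415), and without unk49 library 2 acdh-1 was called at 1.297 (adjusted p 0.0099).

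Sulfur amino acid genes moved in both directions, with 4 of 12 higher and 1 lower (median 0.72). cth-1 (WBcel235 chromosome V, 16100680 to 16102750), a cystathionine gamma-lyase, fell to 21.2 and 19.8 CPM from 183 and 314 CPM (log2 fold change -3.60, SE 0.41, adjusted p 0.00129). Its paralog cth-2 stood at 779.9 and 781 CPM against 354 and 506 CPM (log2 fold change 0.86, SE 0.25, adjusted p 0.0463). The cysteine dioxygenase gene cdo-1 stood at 50.2 and 52.6 CPM against 8.65 and 19.7 CPM (log2 fold change 1.86, SE 0.37, adjusted p 0.0105), and sqrd-1, which oxidises hydrogen sulfide, at 8.26 and 21.7 CPM against 0.643 and 1.41 CPM (log2 fold change 3.86, SE 0.57, adjusted p 0.00303). The groups overlapped in none of these. rips-1, a gene of the hydrogen sulfide response, stood at 266 and 366 CPM against 9.51 and 16.6 CPM (log2 fold change 4.60, SE 0.77, adjusted p 0.00608). cth-2 missed the threshold without unk59 library 1, unk59 library 2 or unk49 library 1 (adjusted p 0.116 to 0.202), cdo-1 without unk59 library 1 (adjusted p 0.0643) and rips-1 without unk49 library 1 (adjusted p 0.0648). cth-2 missed it with the second strand column (0.0501).

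Lysozymes gave some of the largest increases. ilys-3 (WBcel235 chromosome IV, 2464456 to 2465443) and ilys-2 (chromosome IV, 2467678 to 2468879), neighbouring invertebrate-type lysozyme genes, stood at 155 and 275 CPM against 0.985 and 1.99 CPM (log2 fold change 7.17, SE 0.53, adjusted p 0.000407) and at 56.0 and 108 CPM against 0.471 and 3.54 CPM (log2 fold change 5.36, SE 0.68, adjusted p 0.00174). lys-10 (chromosome IV, 8332826 to 8333518), a protozoan-type lysozyme, stood at 399 and 414 CPM against 1.67 and 7.47 CPM (log2 fold change 6.48, SE 0.70, adjusted p 0.00113). In wild type the same 3 genes were between 53.6 and 319 CPM on JUb74 and at most 0.321 CPM on OP50. The JUb74 libraries of both genotypes were therefore high and all OP50 libraries low. lys-8 was the only lower one of 13 lysozymes in edgeR's test, at 130.3 and 124 CPM against 282 and 272 CPM (log2 fold change -1.12, SE 0.16, adjusted p 0.00249), and 3 were lower with DESeq2.

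C-type lectins, secreted proteins that bind sugars and often respond to bacteria, were higher in 13 and lower in 22 of 124 cases (median -0.29). clec-70 (WBcel235 chromosome IV, 3932708 to 3936307) had 622 and 534 reads in unk59 on JUb74 and 2 and 1 reads in unk49 on OP50. The ratio of its summed CPM was 371, with a counting interval of 127 to 1800. clec-4 stood at 188 and 91.0 CPM against 16.8 and 6.85 CPM (log2 fold change 3.56, SE 0.76, adjusted p 0.0168) and clec-47 at 163 and 153 CPM against 11.9 and 8.75 CPM (log2 fold change 3.93, SE 0.88, adjusted p 0.0202). Of the lower lectins, clec-258 stood at 0.128 and 0.246 CPM against 9.38 and 16.4 CPM (log2 fold change -6.06, SE 0.57, adjusted p 0.000852), clec-61 at 0.0856 and 0.328 CPM against 13.2 and 10.2 CPM (log2 fold change -5.78, SE 0.78, adjusted p 0.00212) and clec-49 at 9.89 and 6.69 CPM against 84.1 and 106 CPM (log2 fold change -3.52, SE 0.35, adjusted p 0.000888). clec-70 and clec-4 were also higher in both wild-type libraries on JUb74 than on OP50, while clec-61 was high in unk49 on OP50 alone. The lectins called higher numbered 3, 6, 6 and 10 and those called lower 10, 11, 11 and 19 without unk59 library 1, unk59 library 2, unk49 library 1 and unk49 library 2 in turn. clec-47 missed the threshold without any 1 of the 4 libraries (adjusted p 0.0570 to 0.107), and clec-4 without unk59 library 1, unk49 library 1 or unk49 library 2 (adjusted p 0.0626 to 0.103). clec-4 and clec-47 missed it without a filter (0.0787 to 0.0862).

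Epidermal antimicrobial peptides were higher in 7 and lower in 1 of 18 cases (median 0.63). nlp-27 stood at 100.2 and 91.7 CPM against 30.9 and 38.5 CPM (log2 fold change 1.47, SE 0.18, adjusted p 0.00160) and nlp-29 at 45.3 and 52.8 CPM against 17.5 and 25.7 CPM (log2 fold change 1.18, SE 0.25, adjusted p 0.0136). cnc-7 (4.03) and cnc-11 (3.50) had larger fold changes at 2.18 CPM or less, and nlp-30 was the lower one (-1.35). At most 1 of the genes was called higher without unk49 library 1 or either unk59 library, and 7 were without unk49 library 2. nlp-30 missed the threshold without any 1 of the 4 libraries (adjusted p 0.0547 to 0.163), and nlp-29, cnc-7 and cnc-11 without unk59 library 1, unk59 library 2 or unk49 library 1 (adjusted p 0.0590 to 0.131).

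Digestive aspartyl and cysteine proteases of the intestine were mainly lower, with 7 lower and 2 higher of 19 tested (median -0.31), and 3 lower without either unk59 library. asp-1, a cathepsin D-like protease, stood at 6316 and 5134 CPM against 14600 and 15900 CPM (log2 fold change -1.41, SE 0.26, adjusted p 0.00736). asp-14 stood at 82.2 and 66.6 CPM against 670.1 and 486 CPM (log2 fold change -2.96, SE 0.39, adjusted p 0.00188), and the cathepsin B-like gene cpr-4 at 180.3 and 173 CPM against 747 and 533 CPM (log2 fold change -1.86, SE 0.25, adjusted p 0.00219). asp-12 went the other way, at 132 and 88.6 CPM against 6.90 and 5.66 CPM (log2 fold change 4.13, SE 0.43, adjusted p 0.00103), as did asp-17 (2.998). Saposin-like proteins, which include pore-forming proteins active against bacteria, were lower in 6 and higher in 2 of 22 cases, and 2 were lower without either unk59 library. Their higher share, 9.09%, is close to the 8.54% of all genes, and the lower share was 27.3% against 8.46%. spp-5 stood at 289 and 318 CPM against 1035 and 1790 CPM (log2 fold change -2.22, SE 0.41, adjusted p 0.00783) and spp-8 at 56.8 and 47.5 CPM against 167 and 186 CPM (log2 fold change -1.76, SE 0.17, adjusted p 0.000885). asp-17 missed the threshold without unk59 library 1 or unk49 library 1 (adjusted p 0.0544 to 0.0816), spp-5 without unk59 library 1 or unk59 library 2 (adjusted p 0.0528 to 0.0895) and asp-1 without unk59 library 2 (adjusted p 0.0565). The 7 intestinal markers summed to 9470 and 7620 CPM in unk59 on JUb74 and 18700 and 20400 CPM in unk49 on OP50. asp-1 is among them, and its own levels, given above, make up most of each sum. The sum is thus no separate reference for the proteases. The part of intestinal RNA in the protease and saposin-like genes was not tested.

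The detoxification families changed in both directions. UDP-glucuronosyltransferases, which attach sugars to small molecules, were higher in 24 and lower in 10 of 62 cases (median 0.32). ugt-41 (WBcel235 chromosome V, 7161068 to 7163595) stood at 248 and 195 CPM against 7.11 and 5.30 CPM (log2 fold change 5.16, SE 0.40, adjusted p 0.000546). It was between 4.01 and 12.52 CPM in the other 6 libraries, so unk59 on JUb74 alone was high. ugt-15 stood at 10.9 and 9.94 CPM against 0.0857 and 0.177 CPM (log2 fold change 6.26, SE 0.66, adjusted p 0.00109), and its level in the other 6 libraries was 8.37 CPM or more, so unk49 on OP50 alone was low. ugt-66 stood at 41.1 and 31.2 CPM against 1.03 and 0.309 CPM (log2 fold change 5.74, SE 0.82, adjusted p 0.00263). The lower ones included ugt-33 (-3.05), ugt-52 (-3.04) and ugt-34 (-5.09). The glucuronosyltransferases called higher numbered 14, 17, 16 and 20 and those called lower 5, 4, 8 and 8 without unk59 library 1, unk59 library 2, unk49 library 1 and unk49 library 2 in turn. ugt-34 missed the threshold without unk59 library 2 (adjusted p 0.0528).

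Of 66 cytochromes P450 tested, 14 were higher and 12 lower, with a median of -0.18 that was 0.01 under upper-quartile scaling and 0.29 without unk49 library 2. cyp-14A1 stood at 13.7 and 16.96 CPM against 0.685 and 0.795 CPM (log2 fold change 4.36, SE 0.56, adjusted p 0.00177) and cyp-33C8 at 199 and 170 CPM against 14.99 and 14.5 CPM (log2 fold change 3.64, SE 0.45, adjusted p 0.00169). cyp-37B1 fell from 47.8 and 55.5 to 2.01 and 3.08 CPM (log2 fold change -4.34, SE 0.71, adjusted p 0.00452), and cyp-35A3 from 2.79 and 6.76 to 0.214 and 0.246 CPM (log2 fold change -4.34, SE 0.72, adjusted p 0.00487). cyp-37B1 was at most 5.44 CPM in the other 6 libraries, so unk49 on OP50 alone was high. Glutathione S-transferases were higher in 7 and lower in 6 of 39 cases. gst-20 stood at 9.98 and 9.48 CPM against 30.3 and 40.9 CPM (log2 fold change -1.87, SE 0.25, adjusted p 0.00195) and gst-24 at 6.81 and 5.46 CPM against 2.23 and 2.61 CPM (log2 fold change 1.34, SE 0.27, adjusted p 0.0109). cyp-37B1, cyp-35A3 and gst-24 missed the threshold without unk59 library 1 (adjusted p 0.0648 to 0.0902). The cytochromes called higher numbered 7, 8, 7 and 13 and those called lower 1, 3, 8 and 11 without unk59 library 1, unk59 library 2, unk49 library 1 and unk49 library 2 in turn. The glutathione S-transferases called higher numbered 1, 3, 2 and 5 and those called lower 1, 1, 3 and 3 without unk59 library 1, unk59 library 2, unk49 library 1 and unk49 library 2 in turn.

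Among stress and pathogen-response reporters, 5 of 20 were lower and 1 higher, with 1 lower without unk59 library 1 and 2 without unk59 library 2. The metallothionein gene mtl-2 stood at 2.95 and 3.78 CPM against 19.4 and 64.0 CPM (log2 fold change -3.63, SE 0.61, adjusted p 0.00509) and dod-22 at 6.04 and 6.32 CPM against 40.1 and 44.5 CPM (log2 fold change -2.77, SE 0.47, adjusted p 0.00509). cyp-35B1, which this list also holds, stood at 0.814 and 1.76 CPM against 7.03 and 29.7 CPM (log2 fold change -3.82, SE 0.81, adjusted p 0.0139). sod-3, a mitochondrial superoxide dismutase, was the higher one at 9.38 and 11.82 CPM against 1.71 and 3.71 CPM (log2 fold change 1.97, SE 0.40, adjusted p 0.0121). sod-3 shares 547 bases with C08A9.3 on the opposite strand. sod-3 missed the threshold without unk59 library 1, unk59 library 2 or unk49 library 1 (adjusted p 0.0545 to 0.0660), dod-22 and cyp-35B1 without unk59 library 1 or unk59 library 2 (adjusted p 0.0503 to 0.142) and mtl-2 without unk59 library 1 (adjusted p 0.0719). cyp-35B1 missed it without a filter (0.0535).

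Outside these families, the largest changes by the fixed rule (12 genes in each direction, mean log2 CPM of at least 3 over the 4 libraries, groups not overlapping) included further named genes. argk-1 (WBcel235 chromosome V, 16103894 to 16105952), the arginine kinase of the creatine kinase family, lies next to cth-1 on the same strand. It stood at 0.214 and 0.410 CPM against 136.7 and 164 CPM (log2 fold change -8.88, SE 1.01, adjusted p 0.00147). Wild type on JUb74 was low too, at 0.865 and 0.594 CPM, against 182 and 155 CPM on OP50. The 4 JUb74 libraries were thus far below all OP50 libraries. pud-3 fell from 174 and 100.3 to 0.0428 and 0.328 CPM (log2 fold change -9.47, SE 2.34, adjusted p 0.0299), but its level in wild type on JUb74 spread from 0.212 to 38.3 CPM. pud-3 missed the threshold without unk59 library 1, unk59 library 2 or unk49 library 1 (adjusted p 0.0897 to 0.203). pud-3 missed it without a filter or with the second strand column (0.0538 to 0.110).

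cdh-7, a cadherin gene, stood at 0.814 and 1.56 CPM against 18.2 and 13.9 CPM (log2 fold change -3.75, SE 0.38, adjusted p 0.000926), and oac-20, of the acyltransferase family named for O-acetylation, at 2.44 and 0.903 CPM against 37.7 and 22.3 CPM (log2 fold change -4.17, SE 0.48, adjusted p 0.00129). warf-1 stood at 423 and 344 CPM against 1.54 and 1.94 CPM (log2 fold change 7.78, SE 0.69, adjusted p 0.000750). It was at most 6.67 CPM in every other library, so unk59 on JUb74 alone was high. sdz-35 showed the same at a lower level, with 24.4 and 14.9 CPM against 0.171 and 1.28 CPM (log2 fold change 4.75, SE 0.70, adjusted p 0.00291). dmsr-12, related to the myosuppressin receptors of Drosophila, had 451 and 457 reads against 3 and 1, a ratio of summed CPM of 219 with a counting interval of 85.1 to 804. txt-4 fell from 161 and 252 to 12.6 and 10.51 CPM (log2 fold change -4.16, SE 0.82, adjusted p 0.0129). txt-4 missed the threshold without unk59 library 1 or unk59 library 2 (adjusted p 0.0737 to 0.111). txt-4 missed it without a filter (0.0629).

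**Figure D3:**
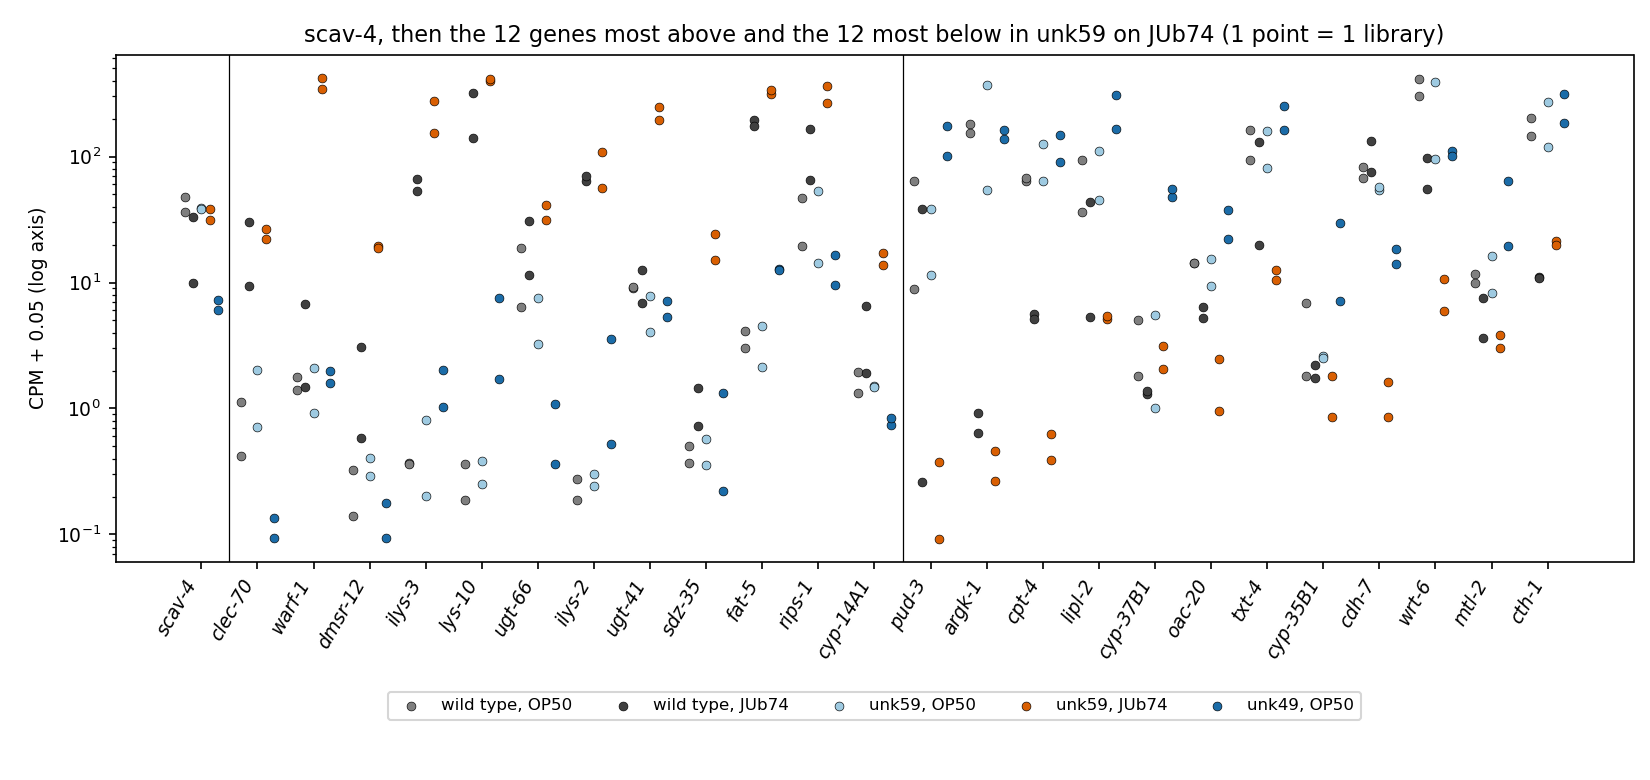
Level in each of the 10 libraries (y axis, CPM + 0.05 on a log axis) of scav-4, the 12 genes most above and the 12 most below in unk59 on JUb74, with 1 point for each library. ilys-3, ilys-2, lys-10 and fat-5 are high on JUb74 in wild type and unk59, while warf-1 and ugt-41 are high in unk59 on JUb74 alone.

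Secreted peptides were more often higher than lower. Neuropeptide genes were higher in 32 and lower in 4 of 97 cases, with a median of 0.67. nlp-59 stood at 25.7 and 19.7 CPM against 2.53 and 2.08 CPM (log2 fold change 3.30, SE 0.32, adjusted p 0.000885), nlp-18 at 5.91 and 13.2 CPM against 0.985 and 0.309 CPM (log2 fold change 3.87, SE 0.82, adjusted p 0.0142) and flp-18 at 11.6 and 12.77 CPM against 2.87 and 3.005 CPM (log2 fold change 2.05, SE 0.35, adjusted p 0.00529). The neuropeptides called higher numbered 8, 11, 7 and 23 and those called lower 0, 1, 2 and 3 without unk59 library 1, unk59 library 2, unk49 library 1 and unk49 library 2 in turn. The 10 neuronal markers summed to 637 and 581 CPM in unk59 on JUb74 and 530 and 517 CPM in unk49 on OP50. In the other 6 libraries the sum of these markers was 796 to 1260 CPM. Of the markers, 2 were called higher and none lower, with a median of 0.445. The neuropeptide genes summed to 2370 and 2260 CPM in unk59 on JUb74 and 1740 and 2160 CPM in unk49 on OP50. The part of neuronal RNA in the neuropeptide genes was not tested. nlp-18 missed the threshold without unk59 library 2, unk49 library 1 or unk49 library 2 (adjusted p 0.0560 to 0.0724).

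Insulin-like peptides, ligands of the receptor DAF-2, were higher in 8 and lower in 2 of 25 cases (median 1.56), all of the higher ones at 6.49 CPM or less. ins-26 stood at 2.57 and 3.08 CPM against 0.171 and 0.0884 CPM (log2 fold change 4.38, SE 0.77, adjusted p 0.00622) and daf-28 at 2.18 and 4.68 CPM against 0.600 and 0.133 CPM (log2 fold change 3.20, SE 0.96, adjusted p 0.0497). Of the lower ones, ins-35 stood at 0.642 and 1.23 CPM against 5.66 and 2.65 CPM (log2 fold change -2.14, SE 0.49, adjusted p 0.0206). The median was -0.44 over the insulin genes that had a minimum of 10 reads in all libraries. The insulin-like peptides called higher numbered 1, 2, 2 and 6 and those called lower 0, 0, 0 and 3 without unk59 library 1, unk59 library 2, unk49 library 1 and unk49 library 2 in turn. daf-28 missed the threshold without any 1 of the 4 libraries (adjusted p 0.103 to 0.182), and ins-35 without unk59 library 1, unk59 library 2 or unk49 library 1 (adjusted p 0.0528 to 0.180). daf-28 missed it without a filter, with the first strand column or with relative log expression scaling (0.0524 to 0.0854).

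Transthyretin-related genes, a family of small secreted proteins of nematodes, were higher in 10 and lower in 1 of 55 cases (median 0.70), with 5 higher without unk59 library 1 and 6 without unk49 library 1. ttr-15 stood at 1434 and 1190 CPM against 304 and 479 CPM (log2 fold change 1.74, SE 0.23, adjusted p 0.00206) and ttr-18 at 395 and 346 CPM against 133 and 105 CPM (log2 fold change 1.64, SE 0.18, adjusted p 0.00126). ttr-44 was the lower one, at 14.3 and 21.6 CPM against 117 and 121 CPM (log2 fold change -2.73, SE 0.55, adjusted p 0.0111). In ttr-15 and ttr-18 the groups did not overlap. ttr-44 missed the threshold without unk59 library 1, unk59 library 2 or unk49 library 1 (adjusted p 0.0538 to 0.125). ttr-44 missed it without a filter (0.0596).

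**Figure D4:**
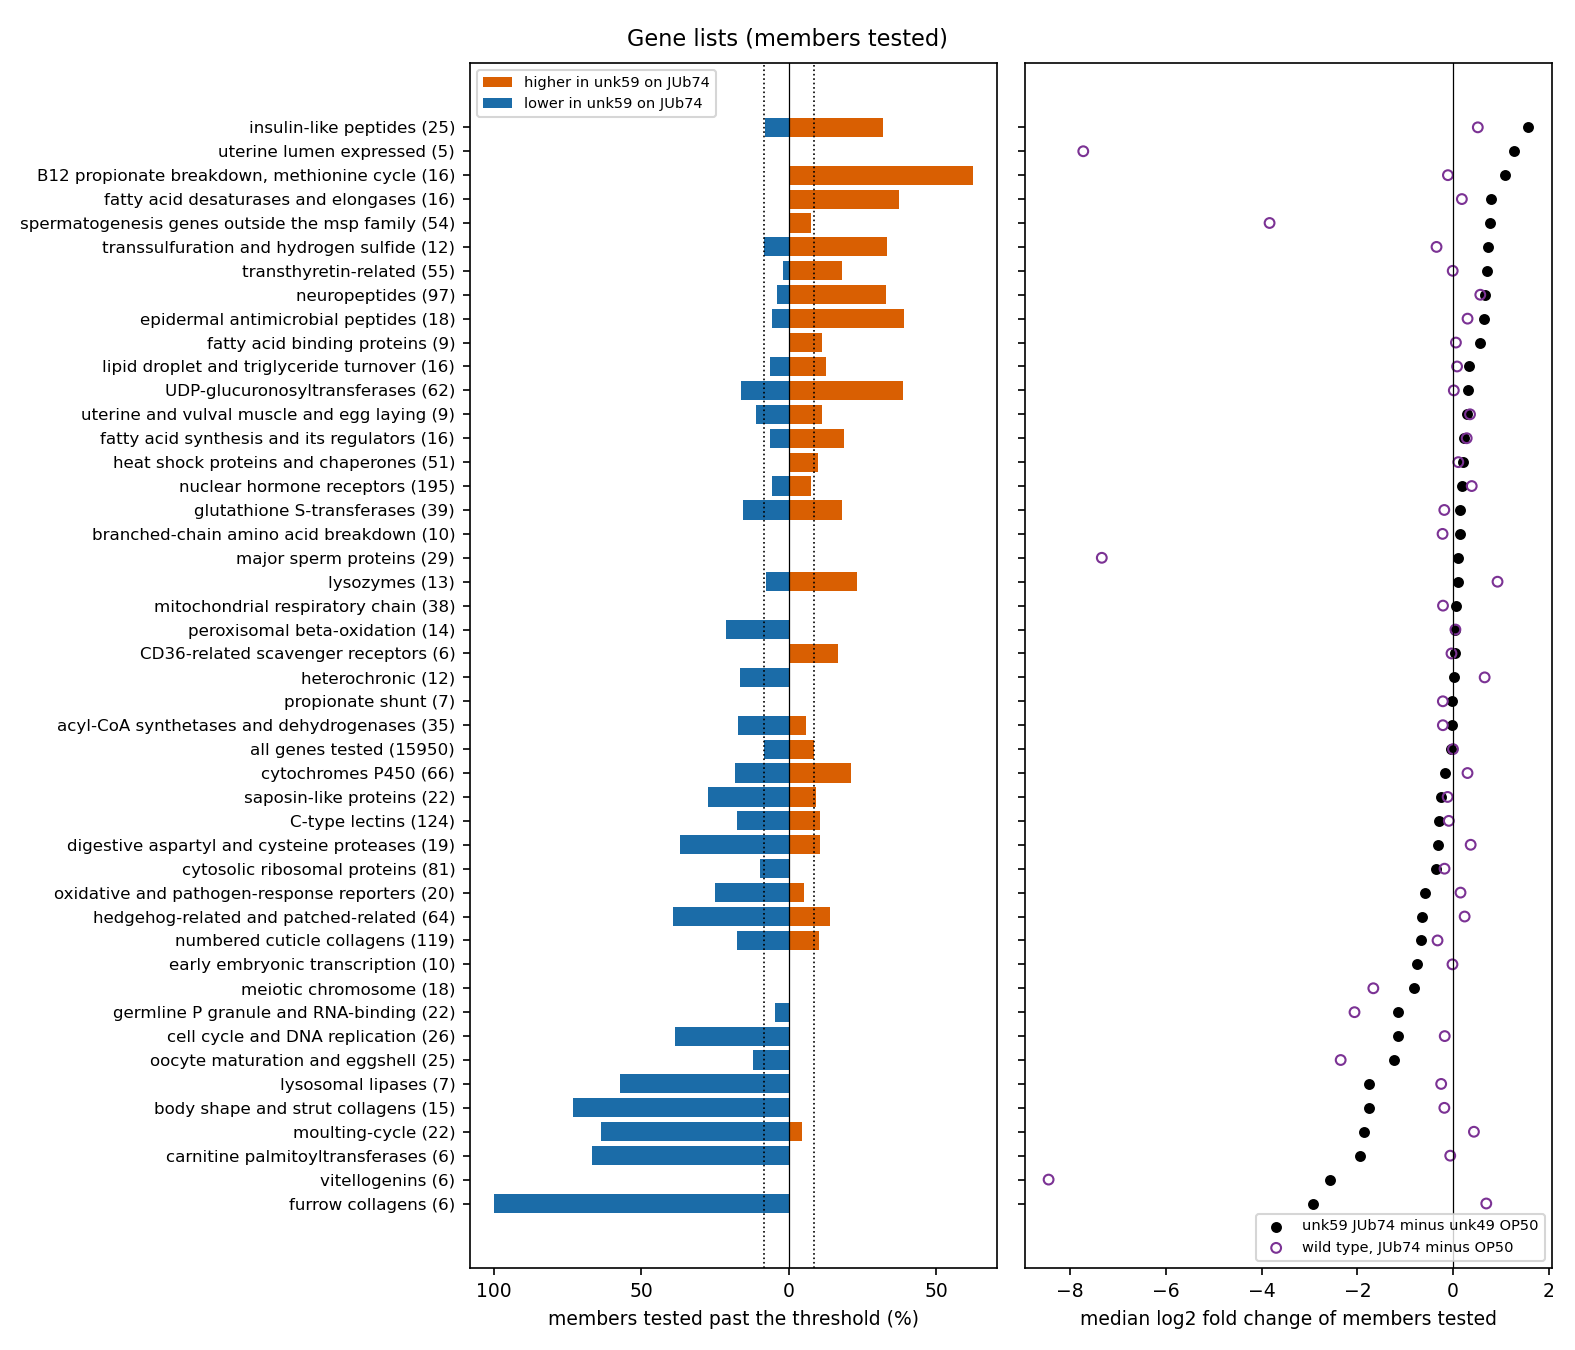
Gene lists ordered by the median log2 fold change of their members tested (number in brackets). Left, the percentage of members higher (orange) and lower (blue) in unk59 on JUb74, with dotted lines at 8.54% and 8.46% of all genes. Right, the median in the same comparison (filled) and for food in wild type (open), where furrow collagens stand at -2.92 and 0.69.

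Placing the called genes among all 10 libraries shows which group stood apart. Of the 1362 higher genes, 757 (55.6%) had only the unk59 libraries on JUb74 at an end, above all other 8. Another 368 (27%) had only the unk49 libraries at an end, below all other 8, and 165 (12.1%) had both groups at the ends. Of the 1350 lower genes, 900 (66.7%) had only the unk59 libraries at an end, below all other 8. Another 332 (24.6%) had only the unk49 libraries at an end, above all other 8, and 45 had both groups at the ends. Over all genes tested, the unk59 libraries were above all others in 18.4% and below in 16.7%, and the unk49 libraries were above in 11.2% and below in 9.37%. These shares over all genes include genes with both groups at the ends, so they are not directly comparable with the shares for only a single group. The called genes were selected for a difference between these groups, so their shares are a description.

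The comparison of foods in wild type shares no library with the one above and serves as a reference for food. This comparison called 1426 genes (8.94%), 422 higher on JUb74 (2.65%) and 1004 lower (6.29%). Of the 1362 genes higher in unk59 on JUb74, 153 (11.2%) were also higher on JUb74 in wild type, which is 36.3% of the latter. Over all genes tested these shares were 2.65% and 8.54%. Of the 1350 lower genes, 72 (5.33%) were also lower in wild type, 7.17% of its list. Over all genes tested these shares were 6.29% and 8.46%, so the overlap of lower genes was no larger than the share of all genes. The remaining shared calls were opposite, with 36 genes higher here and lower in wild type and 27 lower here and higher in wild type. The wild-type list was less stable, with 13 to 472 calls when 1 of its libraries was left out, and its lower calls included all 29 major sperm protein genes tested.

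The genes with the largest change shared by both comparisons were lysozymes, the lectins clec-70 and clec-4, fat-5, argk-1, cpt-4, cth-1 and the collagens bli-1, bli-2 and col-110. In wild type, fat-5 had a log2 fold change of 5.71 for JUb74 over OP50 (adjusted p 0.000246), beside 4.69 here. ilys-3 had 7.54 beside 7.17, lys-10 9.95 beside 6.48 and ilys-2 8.48 beside 5.36. Among the lower genes, argk-1 had -7.85 beside -8.88, cth-1 -3.997 beside -3.60 and cpt-4 -3.61 beside -8.01. The wild-type calls of fat-5, ilys-3 and cth-1 held with any wild-type library left out. argk-1 missed the threshold without JUb74 library 2 or either OP50 library (adjusted p 0.0578 to 0.0772), lys-10 and ilys-2 without either OP50 library (0.0533 to 0.0821) and cpt-4 without JUb74 library 2 (0.0563). bli-2 and col-110 missed it without any 1 of the 4 wild-type libraries (0.0751 to 0.13), and bli-1, clec-70 and clec-4 without JUb74 library 2 or either OP50 library (0.0765 to 0.181). clec-4 and col-110 also missed it without a filter (0.119 and 0.0638). By contrast, the furrow collagen dpy-7 had 0.72 (adjusted p 0.216) in wild type beside -2.998 here, and mlt-11 0.57 (adjusted p 0.339) beside -3.50. ugt-41 had 0.10 (adjusted p 0.899) beside 5.16. The difference between the contrasts was not tested for these genes.

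**Figure D5:**
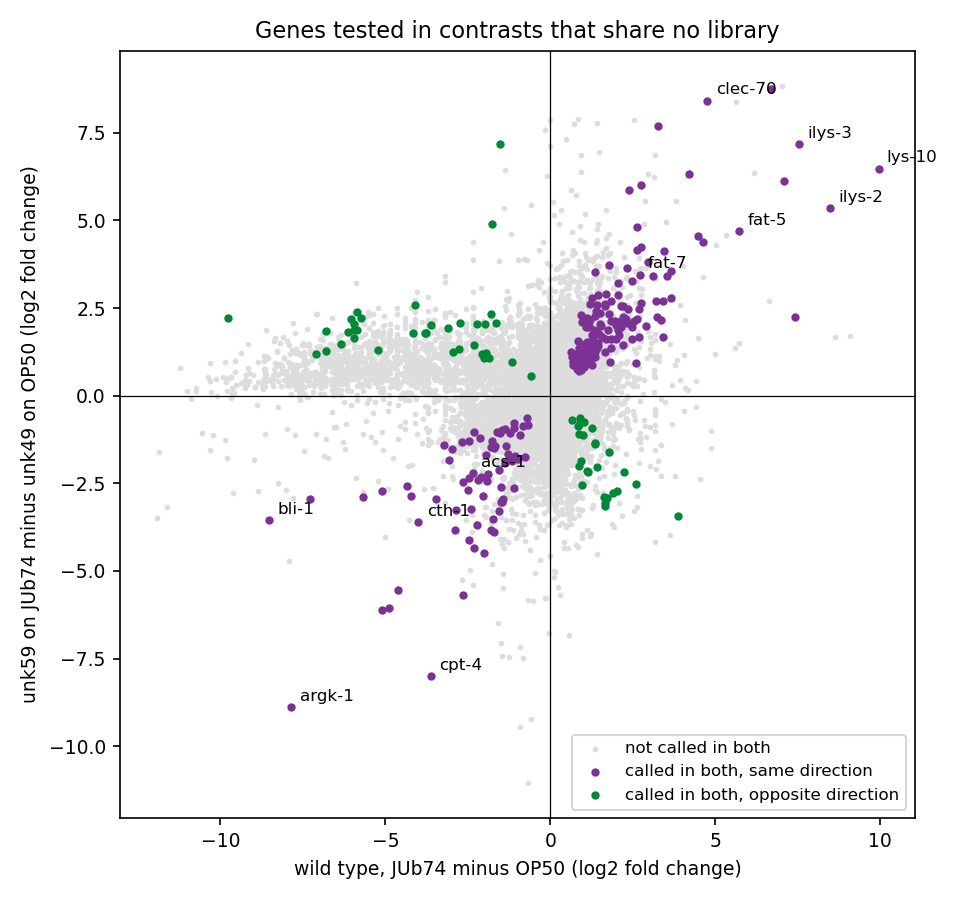
Log2 fold change of each gene tested for food in wild type (x axis) and for unk59 on JUb74 over unk49 on OP50 (y axis). Purple points were called in both in the same direction (153 higher, 72 lower) and green points in opposite directions (36 and 27), with lys-10 and ilys-3 at the upper right and argk-1 at the lower left.

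The comparison can also be read as the sum of a step of food within unk59 and a step of allele on OP50, which share libraries with it. For dpy-7 the food step was -4.92 and the allele step, unk59 over unk49 on OP50, was 1.92. For fat-5 they were 6.64 and -1.95, and for cpt-4 -7.66 and -0.34. For metr-1 they were 0.94 and 0.75, for sams-1 -0.98 and 2.19, and for ugt-15 -0.66 and 6.92. For lipl-5 they were 0.16 and -1.91, and for cyp-37B1 -0.34 and -4.002. In size, the food step was the larger for fat-5 and cpt-4, and the allele step for sams-1, ugt-15, lipl-5 and cyp-37B1. The difference between the steps was not tested. Both steps use the unk59 libraries on OP50, which were unlike each other, with major sperm proteins at 3.81 and 68.3 CPM. In the germline genes both steps were large and of opposite sign, as for puf-5, an oocyte RNA-binding protein, with 8.003 and -9.38. Each step also crosses between a group with few sperm and oocyte transcripts and one with many, and the part of stage in it cannot be told apart from food or allele.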

How the data were processed

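RNA of whole worms was sequenced as paired reads, per the labels' protocols. The deposited files hold raw counts (read pairs for each gene), and the submitters' processing notes name STAR 2.7.10, DESeq2 and the build WBcel235. Counts ignoring strand were used, because the strand columns hold 49.82% to 50.128% of the stranded reads each way. Multimapping and ambiguous pairs are not in the counts. Libraries of a group differed more than sampling noise (chi-square per degree of freedom 19.8 to 88.9, highest in unk49 on OP50) and entered as separate libraries. Intervals cover counting error only.

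Counts were fitted in R 4.3.3 with edgeR 4.0.16 (TMM scaling, filterByExpr, a mean for each of 5 groups, robust quasi-likelihood fit, two-sided F test), and Benjamini-Hochberg adjustment ran over 15950 genes. The shared biological coefficient of variation was 23.4%. All 10 libraries entered the fit because each group has 2. DESeq2 1.42.0, other scalings, filters, strand columns and left-out libraries were alternatives. The test was also run on simulated counts. These were drawn with the spread that the same fit had estimated, so they cannot check that estimate. Symbols and coordinates came from the Ensembl annotation of WBcel235, which held 46603 of 46778 IDs.

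The comparison, the gene lists and the rule for named genes were chosen with earlier results of these data known. The rule took the 12 higher and 12 lower genes with the largest change (mean log2 CPM of at least 3, groups not overlapping, a gene name), the 6 in each direction with the largest change shared with food in wild type, scav-4, and up to 4 called members of each list in each direction. rme-2, oma-1, vit-6, ule-1, col-19, acdh-1, elo-5, elo-6 and puf-5 are named for their role. List members beyond the fourth were chosen after their values were seen. unk49 on JUb74 and a count table linked to no sample were not analysed here.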

Additional observations from a re-analysis of the deposited data

How the results depend on the processing

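The sign of all 2712 calls was kept with each library left out, with relative log expression or upper-quartile scaling, without a filter and with DESeq2. The calls were selected on the same counts, so a kept sign is a weak check. The number of calls was 625 to 4347 when 1 of the 4 libraries was left out, with 354 to 1767 higher and 271 to 2580 lower. Lower calls numbered 2151 with DESeq2, 860 with only the 4 libraries and 817 with upper-quartile scaling. For food in wild type, calls numbered 2180 with DESeq2 (1557 lower), 429 with a minimum of 10 reads per library (201 higher, 228 lower), 938 (648 lower) and 912 (620 lower) with either strand column, and 13 to 472 without a library (4 to 260 higher, 9 to 212 lower). scav-4 kept its direction (2.24 to 2.53 with a library left out), with 2.31 (adjusted p 0.0740) without unk49 library 1 and 2.24 (0.0709) without unk59 library 1. List medians changed sign for cytochromes P450 (0.076 with a minimum of 10 reads per library, 0.005 with upper-quartile scaling), glutathione S-transferases (-0.291), insulin-like peptides (-0.440) and lysozymes (-0.294), the last 3 with a minimum of 10 reads per library. Leaving out a library also turned the medians of lysozymes (-0.25 without unk49 library 1, -0.146 without unk59 library 2), glutathione S-transferases (-0.091, -0.055, same libraries) and major sperm proteins (-0.198 without unk49 library 2), and strand columns gave -0.158 and -0.123 for glutathione S-transferases. Medians close to 0 also changed sign in CD36-related, acyl-CoA, heterochronic, mitochondrial, peroxisomal and propionate shunt genes, as did that of egg-laying genes (0.286, and -0.065 without unk49 library 1). The causes were not tested, except that a stricter filter tests fewer genes. No paired analysis was possible because the labels give no replicate numbers that pair libraries across groups. With 2 libraries a group, p-values rest on a spread shared over 5 groups, whose libraries differ in how alike they are.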

Other observations

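Among nuclear hormone receptors, 15 were higher and 11 lower of 195 tested (median 0.18), shares close to those of all genes. The receptors called higher numbered 2, 11, 11 and 22 and those called lower 4, 4, 7 and 16 without unk59 library 1, unk59 library 2, unk49 library 1 and unk49 library 2 in turn. nhr-99 stood at 5.09 and 4.43 CPM against 26.4 and 26.9 CPM (log2 fold change -2.48, SE 0.21, adjusted p 0.000627) and nhr-11 at 21.02 and 16.18 CPM against 2.91 and 4.29 CPM (log2 fold change 2.37, SE 0.29, adjusted p 0.00157), and the groups did not overlap in either. Of 51 heat shock proteins and chaperones, 5 were higher and none lower, with 2 to 8 higher when a library was left out, fewest without unk59 library 1. The higher share, 9.8%, is close to the 8.54% of all genes. The small heat shock protein genes hsp-12.3 and hsp-17 stood at 15.2 and 14.7 CPM against 1.28 and 1.90 CPM (log2 fold change 3.23, SE 0.31, adjusted p 0.000858) and 141 and 107 CPM against 34.7 and 35.8 CPM (log2 fold change 1.81, SE 0.21, adjusted p 0.00129). The 81 cytosolic ribosomal protein genes summed to 116000 and 111000 CPM in unk59 on JUb74 and 142000 and 150000 CPM in unk49 on OP50. 8 of them were lower and none was higher (median -0.36). The lower share, 9.88%, is close to the 8.46% of all genes. With DESeq2 33 were lower and with relative log expression scaling 17, while under upper-quartile scaling none was lower and the median was -0.17. Without unk49 library 1 or either unk59 library none was lower either. None of 38 mitochondrial respiratory chain genes tested was called in edgeR's test (median 0.07) or with DESeq2, and 1 was higher and 1 lower at an unadjusted p under 0.05.

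By chromosome, 10.8% of genes tested on X were higher and 9.58% lower, and on V 10.8% and 9.02%. On chromosome I 6.12% were higher and 8.25% lower. The 8 muscle markers summed to 5500 and 3730 CPM in unk59 on JUb74 and 5130 and 6550 CPM in unk49 on OP50, and none was called in edgeR's test, with DESeq2 or at an unadjusted p under 0.05. The 12 early embryo markers summed to 19.7 and 24.7 CPM in unk59 on JUb74 and 36.5 and 34.2 CPM in unk49 on OP50. The 8 male markers summed to 2.40 and 2.09 CPM and 1.67 and 1.19 CPM in the same order.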
